A study of Mus musculus with 12 samples.

Results

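DNA methylation and histone modification are written, read and removed by families of enzymes that were followed here as 1 group of 43 genes. The genes were listed by name for their function, without a rule on their values but with earlier results of these data known: 8 genes of DNA methylation, 13 histone deacetylases, 6 acetyltransferases, 6 methyltransferases of histone H3 lysine 4, 4 Polycomb genes, 3 methyltransferases of histone H3 lysine 9 and 3 demethylases. All 43 were matched among the 18558 genes of the count table. RNA was sequenced from pyramidal-layer CA1 tissue of dorsal hippocampus, cut by laser from 8 µm brain sections of untreated male mice 3 to 6 months old. The WT mice were C57BL/6N (3 libraries), and the mutants were Neil1-/- mice lacking the DNA glycosylase NEIL1 (2 libraries), Neil2-/- mice lacking NEIL2 (3 libraries) and Neil1-/-Neil2-/- mice lacking both (2 libraries). The mutant lines were backcrossed to C57BL/6N and bred apart from each other and from the WT mice, so an effect of the allele and an effect of the line cannot be told apart. A further 2 libraries, whose title gives one genotype and whose label gives another, entered no group.

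NEIL1 and NEIL2 cut oxidised bases out of DNA at the start of base excision repair, and they can assist the glycosylase TDG, which removes oxidised forms of methylated cytosine during active DNA demethylation. Methylated cytosine is placed by DNA methyltransferases and bound by proteins that bring histone deacetylases to chromatin. Acetyl groups on histones mark active genes, methylation of histone H3 lysine 4 marks active promoters, and methylation of lysine 9 or, by Polycomb, of lysine 27 marks silent chromatin. In neurons of the adult hippocampus several of these enzymes, among them HDAC2, DNMT3A and CBP, are known for their part in memory.

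The 10 grouped libraries held 19618923 to 21970180 counts each. Neil1-/-Neil2-/- replicate 1 stood apart from the rest on the first principal component, which carried 23.4% of the variance (43.9 against -21.1 to 10.9 in the other 9 libraries), and it also had the most RNA of other cell types: the 11 oligodendrocyte markers summed to 1300 CPM there (CPM are counts scaled to a common library size) against 550 to 638 CPM in WT, and the 8 astrocyte markers to 727 against 446 to 499 CPM. The 11 markers of CA1 pyramidal neurons were all detected, with sums of 7160 to 8050 CPM in WT and 7210 to 8790 CPM in the mutants. Neil2 had 5 to 10 counts in each of the 5 libraries with NEIL2 and 0 counts in each of the 5 without it. Neil1 counts were higher in the libraries labelled as lacking NEIL1 (5.97 to 7.67 CPM) than in the others (2.95 to 4.44 CPM). A count over the whole gene does not separate the deleted part from the rest, so it does not check the labels for Neil1.

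Of the 43 genes, 41 passed the filter on low counts and were tested along with 13982 genes in all. In the comparison of each mutant with WT none of the 41 passed an adjusted p of 0.05 in edgeR's quasi-likelihood test. Pooled over both backgrounds, Hdac1 RNA was lower in the mice without NEIL2. Hdac1 was the only gene of the group that passed in any of the 9 comparisons made with edgeR. It passed in the pooled comparison for NEIL2 and in a test for any difference among genotypes. Of all tested genes 1.49% and 1.24% passed there. The log2 differences of the 41 genes from WT ran from -0.51 to 0.25 in Neil1-/-, from -0.52 to 0.19 in Neil2-/- and from -0.40 to 0.24 in Neil1-/-Neil2-/-, and all their 95% intervals lay between -1 and 1.

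Hdac1 encodes a class I deacetylase that, with its close relative HDAC2, is the catalytic subunit of the NuRD, Sin3 and CoREST repressor complexes. The gene lies on chromosome 4 (GRCm38, 129516104 to 129542646), and its counts were 390 to 616 per library. Its level was 29.8, 27.2 and 28.2 CPM in the WT libraries and 29.0 and 30.8 CPM in Neil1-/-. It was 18.2, 23.2 and 20.6 CPM in Neil2-/- and 22.6 and 20.8 CPM in Neil1-/-Neil2-/-. Every library without NEIL2 (18.2 to 23.2 CPM) was thus below every library with it (27.2 to 30.8 CPM). Among the members Hdac1 alone separated these libraries, while 3.68% of all tested genes did so in one direction or the other.

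In the additive fit, which estimates the loss of each protein over all 10 libraries, Hdac1 was 0.726 times as high without NEIL2 as with it, a log2 difference of -0.46 ± 0.07 (SE, 95% interval -0.62 to -0.31, adjusted p = 0.00813, edgeR). Of all tested genes 1.49% passed in this comparison. The same size was seen in 2 comparisons that have no library in common. They split the libraries that the additive fit pools and share 1 spread per gene, so they add no separate support to it. Neil2-/- against WT gave -0.46 ± 0.10 (SE, adjusted p = 0.0979, edgeR), where 0.3% of all genes passed. Neil1-/-Neil2-/- against Neil1-/- gave -0.46 ± 0.12 (SE, adjusted p = 0.119, edgeR), where 0.458% passed. The latter comparison was added after the values had been seen. Against WT, Neil1-/-Neil2-/- gave -0.39 ± 0.11 (SE, adjusted p = 0.192, edgeR), where 0.322% passed. None of these comparisons of genotypes passed by itself in edgeR. DESeq2 called Hdac1 in Neil2-/- against WT, with and without the filter on low counts (lowest adjusted p = 0.0122, DESeq2). It did not call Hdac1 in Neil1-/-Neil2-/- against Neil1-/- or against WT. Over the 19 alternative fits of the additive comparison the log2 difference ran from -0.51 to -0.41 and the adjusted p from 7.06e-06 to 0.0361, so the call held in all 19. Leaving out Neil1-/-Neil2-/- replicate 1 and Neil1-/- replicate 2 together was among them.

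The test for any difference among the 4 genotypes, which asks 1 question of each gene, also called Hdac1 (adjusted p = 0.0427, edgeR), where 1.24% of all genes passed. That call was less stable: it held in 10 of 19 alternatives, over which the adjusted p ran from 0.000494 to 0.191. With a replicate block the adjusted p was 0.104 (edgeR). In Neil1-/- against WT the Hdac1 difference was 0.07 ± 0.11 (SE), and the interaction, which asks whether the double mutant departs from the sum of the single mutants, was -0.0027 ± 0.15 (SE, adjusted p = 1.0, edgeR) with a 95% interval of -0.34 to 0.33.

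**Figure D1:**
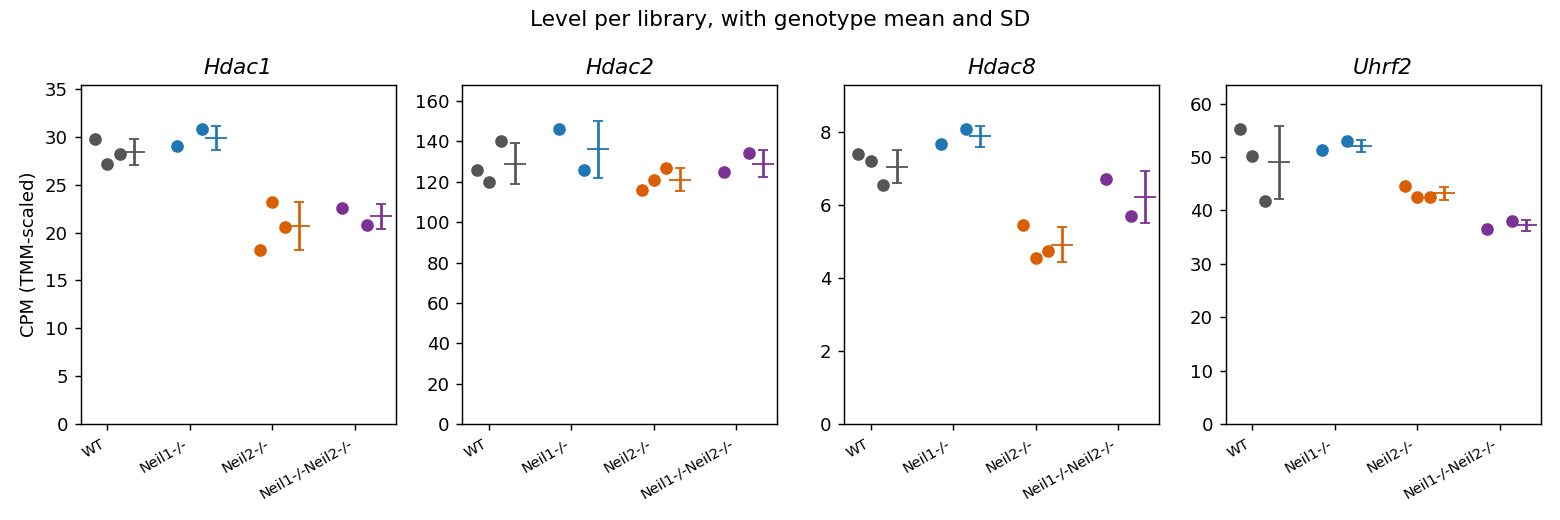
Level of Hdac1, Hdac2, Hdac8 and Uhrf2 in CPM (TMM-scaled, axes from 0) in each of the 10 libraries by genotype, where points are libraries and the bar beside them is the genotype mean with its SD. The 5 Hdac1 points without NEIL2 lie between 18.2 and 23.2 CPM, below the 27.2 to 30.8 CPM of the 5 libraries with it, while Hdac2 overlaps between all genotypes.

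In bulk RNA, fewer cells of a type and less RNA per cell cannot be told apart. Marker sums were compared for the same split of libraries. The 11 CA1 pyramidal markers summed to 7520 to 8790 CPM without NEIL2 and 7160 to 8050 CPM with it. The 11 oligodendrocyte markers summed to 521 to 1300 CPM without and 536 to 706 CPM with NEIL2, the 8 astrocyte markers to 381 to 727 against 446 to 599 CPM, and the 7 interneuron markers to 370 to 511 against 345 to 481 CPM. The 7 microglia markers ran from 61.4 to 94.2 against 68.8 to 91.5 CPM and the 6 endothelial markers from 31.9 to 59.9 against 37.8 to 44.9 CPM. The ranges of these lists overlapped. The 7 markers of dentate gyrus and CA3 summed to 348 to 424 CPM without NEIL2 and 416 to 612 CPM with it. By genotype the sums were 348 to 369 CPM in Neil2-/-, below 416 to 523 CPM in WT. They were 374 to 424 CPM in Neil1-/-Neil2-/-, below 522 to 612 CPM in Neil1-/-. These sums thus separated in the same 2 comparisons of NEIL2 loss as Hdac1. Of the 7 markers, 6 were tested and 1 passed in the additive comparison, and the median log2 difference of the 6 was -0.43. One endothelial marker also passed there and in Neil2-/- against WT. All 11 oligodendrocyte markers were higher without NEIL2 in the additive comparison (median 0.24, none passed), while 3 of 11 were higher in Neil2-/- against WT (median -0.06). The 8 markers of thalamus and striatum summed to 95.9 to 181 CPM without NEIL2 and 78 to 120 CPM with it (6 higher, median 0.81). The 5 of choroid plexus and ependyma summed to 55.1 to 301 against 43.2 to 174 CPM (3 of 4 tested higher, median 0.31). None of the markers in these lists was at 0 in all libraries. The part of other cells and neighbouring tissue in the Hdac1 difference was not tested.

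Reads of Hdac1 can be shared with a processed copy, the pseudogene Hdac1-ps on chromosome 17 (GRCm38, 78491565 to 78493541), which has no row in the count table. Over 1444 aligned bases the copy was 99.4% identical to the Hdac1 transcript of 2038 bases in GENCODE M21. Of the 1939 stretches of 100 bases, the read length, in that transcript, 905 (46.7%) had no difference from the annotated transcript of the copy. That annotated transcript has 1444 bases, and Hdac1 bases outside the alignment were counted as different. The rest of the copy's span on chromosome 17 was not compared, so 46.7% is a lower limit. The 100 coding bases with the most differences, from position 383 to 482 of the coding sequence, are shown since the differences lie densest there. Capitals mark the 6 bases that differ.
Hdac1: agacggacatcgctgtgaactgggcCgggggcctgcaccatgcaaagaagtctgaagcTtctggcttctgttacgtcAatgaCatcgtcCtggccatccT
Hdac1-ps: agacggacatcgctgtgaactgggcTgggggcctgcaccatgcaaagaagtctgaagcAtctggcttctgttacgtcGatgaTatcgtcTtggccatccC
Every Hdac1 count was a whole number in all 10 libraries. With no row for the copy, whole counts do not show whether its reads were counted as Hdac1. Whether reads of the copy entered the Hdac1 counts was not tested.

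Hdac8 and Uhrf2 followed Hdac1 in the ranking of p in the additive comparison for NEIL2. Hdac8 encodes the X-linked class I deacetylase that acts on the cohesin subunit SMC3. Its level was 7.41, 7.20 and 6.54 CPM in WT, 7.67 and 8.08 CPM in Neil1-/-, 5.45, 4.55 and 4.74 CPM in Neil2-/-, and 6.72 and 5.71 CPM in Neil1-/-Neil2-/-. The Neil2-/- libraries were all below the WT libraries, but Neil1-/-Neil2-/- replicate 1 was above the lowest WT library. The additive log2 difference without NEIL2 was -0.45 ± 0.11 (SE, adjusted p = 0.0638, edgeR) and did not pass, and Neil2-/- against WT gave -0.52 ± 0.14 (SE, adjusted p = 0.228, edgeR). Hdac8 had 91 to 161 counts per library. DESeq2 called it in the additive comparison (adjusted p = 0.0228).

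Uhrf2 encodes a paralogue of the maintenance factor UHRF1 that binds hydroxymethylated cytosine. Its level was 55.2, 50.2 and 41.7 CPM in WT, 51.3 and 52.9 CPM in Neil1-/-, 44.6, 42.5 and 42.5 CPM in Neil2-/-, and 36.5 and 38.0 CPM in Neil1-/-Neil2-/-. WT replicate 3 was below all 3 Neil2-/- libraries, and the double mutants were the lowest of the 10. The additive log2 difference without NEIL2 was -0.30 ± 0.08 (SE, adjusted p = 0.0906, edgeR). It was -0.40 ± 0.11 (SE, adjusted p = 0.176, edgeR) in Neil1-/-Neil2-/- against WT and -0.48 ± 0.12 (SE, adjusted p = 0.106, edgeR) in Neil1-/-Neil2-/- against Neil1-/-. These did not pass. Without WT replicate 3 the additive difference was -0.38 (adjusted p = 0.0129, edgeR), Neil1-/-Neil2-/- against WT was -0.50 (adjusted p = 0.0472) and Neil1-/-Neil2-/- against Neil1-/- was -0.49 (adjusted p = 0.0420), so of the edgeR fits at 0.05 those without WT replicate 3 called Uhrf2 and the others did not. DESeq2 called it in the additive comparison with all libraries (adjusted p = 0.0216).

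The 250 bases before the transcript start that RefSeq's promoter table uses for Uhrf2 and Hdac8 are shown since CpG pairs are the substrate of DNA methylation. Capitals mark each CG (the letters CG, the same on both strands). The Uhrf2 window is chr19:30030263-30030512 (plus strand) and has 23 CG, and the Hdac8 window is chrX:102505159-102505408 (minus strand) and has 6 (RefSeq, GRCm38.p6). Other transcripts start further upstream, so 83 bases of the Uhrf2 window and 223 of the Hdac8 window lie inside the gene.
Uhrf2: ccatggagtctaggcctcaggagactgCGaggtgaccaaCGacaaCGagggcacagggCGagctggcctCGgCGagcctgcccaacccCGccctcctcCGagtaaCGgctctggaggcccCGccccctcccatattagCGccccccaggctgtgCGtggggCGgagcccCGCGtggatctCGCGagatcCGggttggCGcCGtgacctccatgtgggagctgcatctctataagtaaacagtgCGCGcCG
Hdac8: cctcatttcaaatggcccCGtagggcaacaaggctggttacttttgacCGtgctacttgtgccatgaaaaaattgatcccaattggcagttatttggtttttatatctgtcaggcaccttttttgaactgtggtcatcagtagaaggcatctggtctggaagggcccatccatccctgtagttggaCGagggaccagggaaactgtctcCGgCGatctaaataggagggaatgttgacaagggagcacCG
A window was found for 34 of the 43 genes, and 22 of these lie partly or wholly inside the gene. Their median number of CG was 19.5, against 6 over the 27025 windows of all genes, and 30 of the 34 (88.2%) had at least 10 CG, which 38.2% of all windows had. These 27025 windows are all those of the promoter table, more than the 18558 genes of the count table. The members were not compared with windows of expressed genes alone. The number ran from 0 in Hdac9 and 2 in Dnmt1 to 48 in Kmt2c. A count of letters says nothing about methylation, which was not measured here.

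The other members showed differences without NEIL2 that did not pass. Besides the 3 genes above, 4 had an unadjusted p under 0.05 in the additive comparison, so 7 of 41 did, 6 of them lower, where 16.1% of all genes had such a p. Eed, the Polycomb subunit that binds methylated lysine 27, was 15.4, 12.4 and 12.9 CPM in WT, 16.2 and 16.0 CPM in Neil1-/-, 11.2, 12.7 and 11.6 CPM in Neil2-/- and 12.0 and 13.6 CPM in Neil1-/-Neil2-/-. Its values overlapped, with an additive log2 difference of -0.25 ± 0.09 (SE, adjusted p = 0.177, edgeR). Mbd3, a subunit of the NuRD complex, had -0.15 ± 0.06, Kat5, the acetyltransferase TIP60, -0.11 ± 0.05, and Kmt2b, a methyltransferase of lysine 4, 0.20 ± 0.08 (SE, adjusted p of 0.245, 0.287 and 0.268, edgeR). Exons of Kat5 share 426 bases with Rnaseh2c on the other strand (use of strand in counting: not given in the sources used here). Of the 43 genes 17 share exon bases with another gene in GENCODE M21, 3 of them with a gene in the count table.

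**Figure D2:**
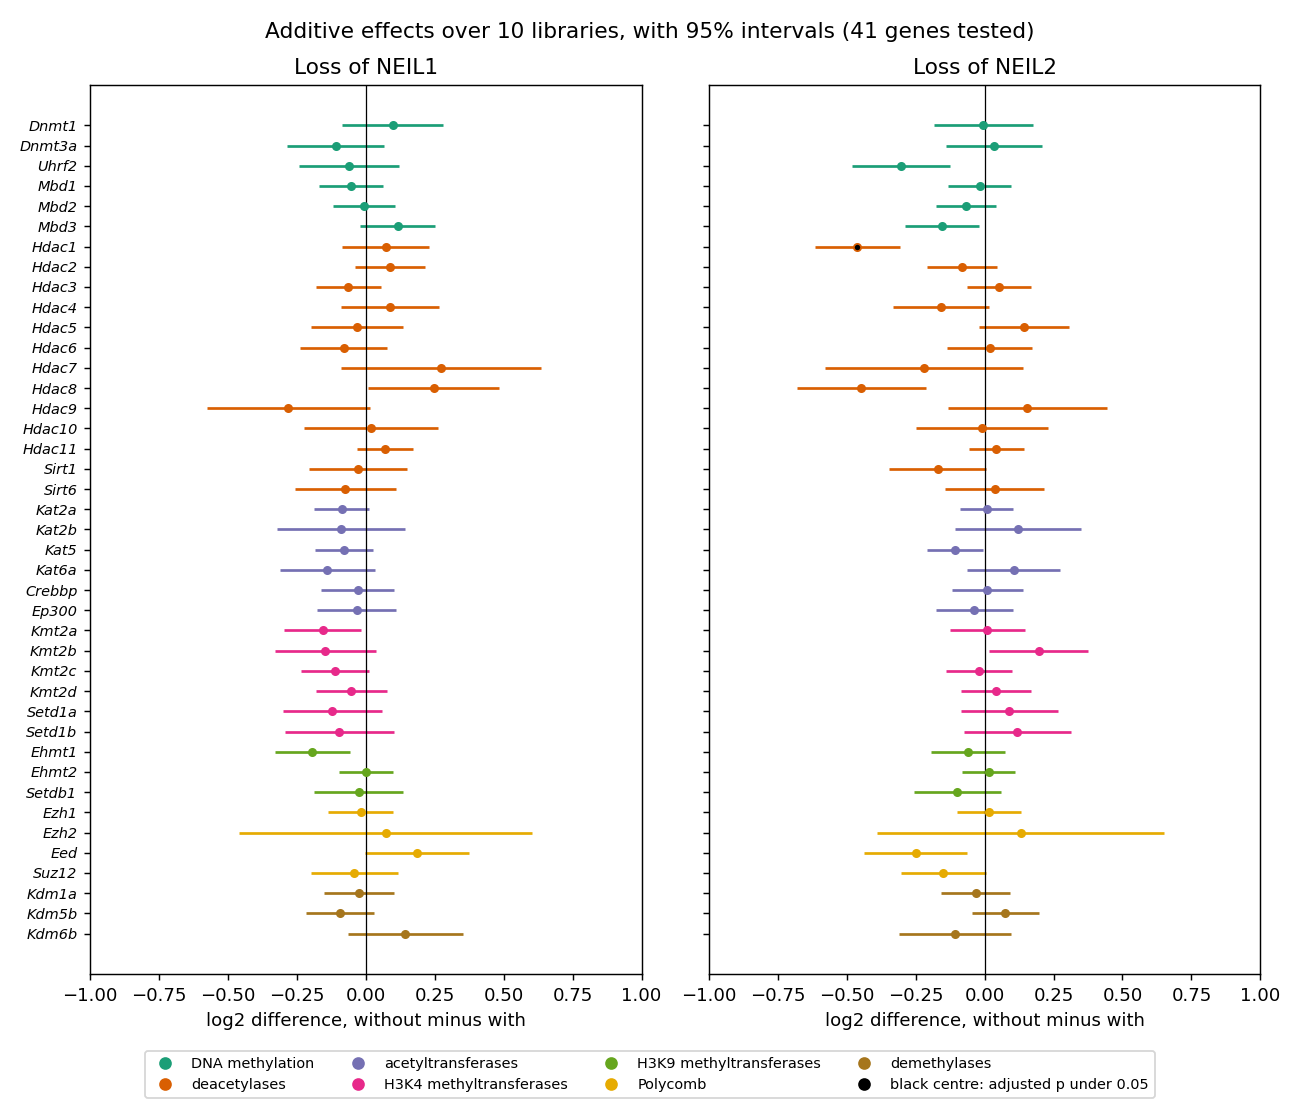
Log2 difference of each of the 41 tested genes without against with NEIL1 (left) and without against with NEIL2 (right), from the additive fit over 10 libraries, with 95% intervals, where colours mark the classes and a black centre an adjusted p under 0.05. Hdac1 at -0.46 in the right panel is the 1 gene with a black centre, and all intervals lie between -1 and 1.

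In Neil2-/- against WT, 2 of 41 members had an unadjusted p under 0.05, Hdac1 and Hdac8, where 9.64% of all genes had. After Uhrf2, next by p was Sirt1, an NAD-dependent deacetylase, at 19.2, 18.9 and 19.4 CPM in WT and 15.2, 18.5 and 16.3 CPM in Neil2-/-. Neil2-/- and WT did not overlap in 4 members (Sirt1, Hdac1, Hdac8 and Kat5) and in 15.3% of all genes. Sirt1 was at 19.5 and 17.1 CPM in Neil1-/- and at 18.4 and 15.2 CPM in Neil1-/-Neil2-/-. Its log2 difference of -0.20 ± 0.11 (SE, adjusted p = 0.599, edgeR) did not pass. The median log2 difference of the 41 members was -0.0048 in this comparison, and -0.0023 over all tested genes.

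Direction was also set side by side for the 2 comparisons of NEIL2 loss that share no library. The same direction in both was seen for 25 of the 41 members (61.0%), 15 lower and 10 higher, and for 60.7% of all tested genes. For NEIL1 loss the same count was 26 of 41 (63.4%) against 59.7%. The members thus kept their direction about as often as all genes did.

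**Figure D3:**
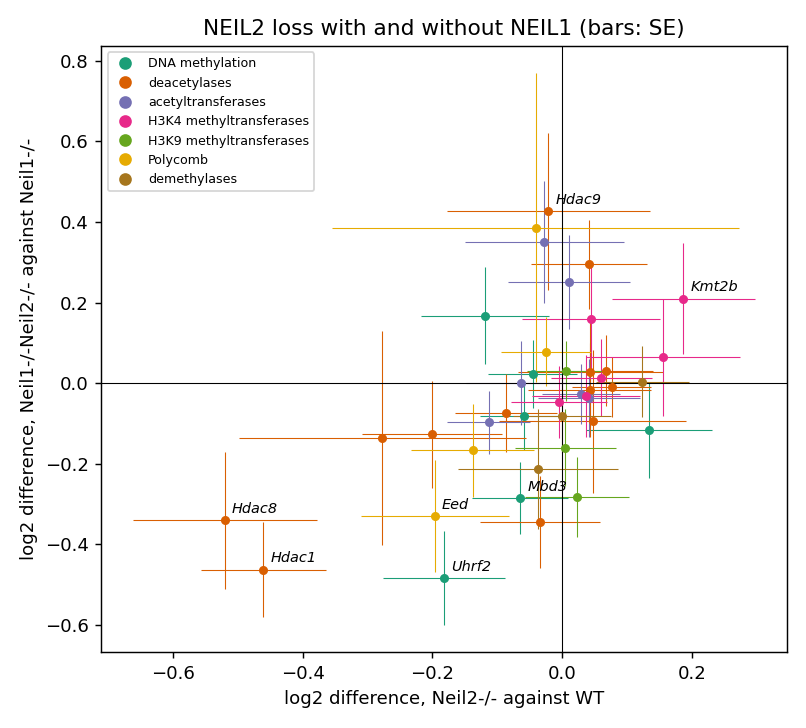
Log2 difference of the 41 tested genes in Neil2-/- against WT (horizontal) and in Neil1-/-Neil2-/- against Neil1-/- (vertical), 2 comparisons with no library in common, where bars are SE and colours the classes. Hdac1 lies at -0.46 on both axes, apart from most other genes, with Hdac8 at -0.52 on the horizontal axis and Uhrf2 at -0.48 on the vertical axis.

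For the loss of NEIL1 no member was called. In the additive comparison, where 0.336% of all genes passed, 3 of 41 members had an unadjusted p under 0.05, as did 13.8% of all genes. Values of markers of other cells were also mostly higher without NEIL1 in the same comparison. Higher without it were 11 of 11 oligodendrocyte markers (median log2 difference 0.43, sums of 536 to 1300 CPM without NEIL1 and 521 to 638 CPM with it) and 8 of 8 astrocyte markers (0.30, 478 to 727 against 381 to 511 CPM). So were 7 of 7 microglia markers (0.16), 6 of 6 endothelial markers (0.27) and 7 of 8 thalamus and striatum markers (1.80, 78.0 to 181 against 78.7 to 101 CPM). Of 7 dentate gyrus and CA3 markers 6 were tested, and all 6 were higher (0.97, 374 to 612 against 348 to 523 CPM). By genotype, oligodendrocyte sums were 536 to 706 CPM in Neil1-/-, 717 to 1300 CPM in Neil1-/-Neil2-/- and 550 to 638 CPM in WT. In the same order, astrocyte sums were 478 to 599, 505 to 727 and 446 to 499 CPM. Those of thalamus and striatum were 78.0 to 120, 138 to 181 and 78.7 to 101 CPM. Those of dentate gyrus and CA3 were 522 to 612, 374 to 424 and 416 to 523 CPM. None of these markers passed, and their part in the differences of the members was not tested. Ehmt1 encodes GLP, a methyltransferase of lysine 9 that works as a dimer with G9a. Its level was 30.9, 29.9 and 29.9 CPM in WT, 31.9, 29.6 and 29.5 CPM in Neil2-/-, 27.0 and 29.0 CPM in Neil1-/-, and 23.7 and 26.4 CPM in Neil1-/-Neil2-/-. The 4 libraries without NEIL1 were all below the 6 with it, a separation that 2.35% of all tested genes showed in one direction or the other and no other member did. The log2 difference was -0.19 ± 0.06 (SE, adjusted p = 0.23, edgeR) and did not pass. It was -0.27 ± 0.09 in Neil1-/-Neil2-/- against WT and -0.28 ± 0.09 in Neil1-/-Neil2-/- against Neil2-/- (SE, adjusted p of 0.261 and 0.275, edgeR). The last comparison, also added after the values had been seen, gave Ehmt1 as the 1 member with an unadjusted p under 0.05, where 10.6% of all genes had such a p and 0.222% passed. Next by p there were Dnmt1 at 0.24 ± 0.11 and Dnmt3a at -0.24 ± 0.11 (SE, adjusted p of 0.473 and 0.476, edgeR).

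Kmt2a, the lysine 4 methyltransferase MLL1, had an additive log2 difference of -0.16 ± 0.06 (SE, adjusted p = 0.311, edgeR) without NEIL1. It is also the member closest to Neil1, 12.3 Mb away on chromosome 9, and the only one within 20 Mb of Neil1 or Neil2. Libraries with and without NEIL1 overlapped: 99.4, 110 and 97.9 CPM in WT, 116, 104 and 95.5 CPM in Neil2-/-, 100 and 88.2 CPM in Neil1-/-, and 92.1 and 92.3 CPM in Neil1-/-Neil2-/-. Hdac8 had 0.25 ± 0.11 and Eed 0.19 ± 0.09 without NEIL1 (SE, adjusted p of 0.349 and 0.372, edgeR).

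In Neil1-/- against WT, where 0.2% of all genes passed, 4 of 41 members had an unadjusted p under 0.05 and 8.98% of all genes did. Hdac9, a class IIa deacetylase that represses MEF2 targets, was 51.4, 48.7 and 77.2 CPM in WT and 45.3 and 37.7 CPM in Neil1-/-. WT replicate 3 was far above the other WT libraries, and the other mutants lay between 52.7 and 66.7 CPM. The log2 difference was -0.51 ± 0.18 (SE, adjusted p = 0.47, edgeR). Mbd3 was 76.3, 84.2 and 79.0 CPM in WT and 88.3 and 98.2 CPM in Neil1-/-, above 70.9 to 80.6 CPM in Neil2-/- and 78.2 and 74.8 CPM in Neil1-/-Neil2-/-. Its log2 difference was 0.22 ± 0.08 (SE, adjusted p = 0.492, edgeR). Kat6a, the acetyltransferase MOZ, was 46.9, 51.8 and 42.4 CPM in WT and 40.1 and 38.3 CPM in Neil1-/-, against 42.9 to 51.8 CPM in Neil2-/- and 48.9 and 44.4 CPM in Neil1-/-Neil2-/- (-0.26 ± 0.11, SE, adjusted p = 0.532, edgeR). Hdac4, a class IIa deacetylase that moves between cytoplasm and nucleus, was 29.2, 24.5 and 26.9 CPM in WT and 29.1 and 34.4 CPM in Neil1-/-, against 25.7 to 27.0 CPM in Neil2-/- and 24.1 and 25.8 CPM in Neil1-/-Neil2-/- (0.24 ± 0.10, SE, adjusted p = 0.542, edgeR). None of these passed. Neil1-/- and WT did not overlap in 11 members, 6 of them lower, and in 26.5% of all genes.

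The sign of the Neil1-/- difference went with transcript length. Over all genes the shortest of 4 equal length classes had a median log2 difference of 0.08 in Neil1-/- against WT, the longest class -0.07 and the longest 5% (683 genes of 8511 bases or more) -0.09. The longest 5% was at -0.01 in Neil2-/- against WT and at -0.03 in Neil1-/-Neil2-/- against WT. Set against the WT mean, the median of these genes by library was -0.0732 and -0.104 in Neil1-/- and -0.0513 to 0.0382 in WT. It was 0.0857, -0.0302 and -0.0956 in Neil2-/- and -0.0139 and -0.0679 in Neil1-/-Neil2-/-. The value thus varied between libraries of the same genotype. Of the 41 tested members 20 were in the longest class. All 6 lysine 4 methyltransferases, whose transcripts are among the longest of the group, had values below 0 in Neil1-/- against WT (median -0.11), and none passed. The part of length in these values was not tested.

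**Figure D4:**
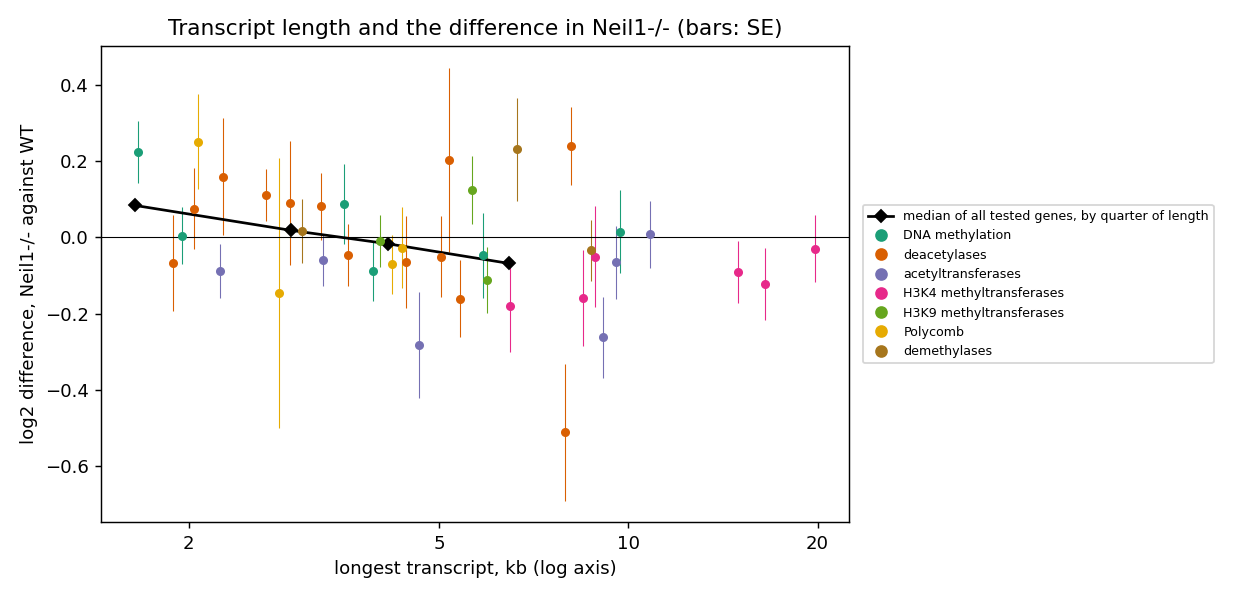
Log2 difference of the 41 tested genes in Neil1-/- against WT (vertical) against the length of the longest transcript in kb (horizontal, log axis), where bars are SE, colours the classes, and diamonds the medians of all tested genes in 4 equal classes of length. The diamonds run from 0.08 in the shortest class to -0.07 in the longest, and the 6 lysine 4 methyltransferases lie below 0.

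In Neil1-/-Neil2-/- against WT, 4 of 41 members had an unadjusted p under 0.05, all lower, where 11.1% of all genes had such a p. These were Uhrf2, Hdac1 and Ehmt1, described above, and Kat5 at 62.1, 65.6 and 64.5 CPM in WT and 57.7 and 55.1 CPM in the double mutant (-0.19 ± 0.07, SE, adjusted p = 0.359, edgeR). Neil2-/- was at 59.0, 57.5 and 61.2 CPM and Neil1-/- at 61.1 and 59.4 CPM, so all 7 mutant libraries were below the 3 WT libraries, and 1.69% of all tested genes had their mutant and WT libraries apart in one direction or the other. Neil1-/-Neil2-/- and WT did not overlap in 12 members, 11 of them lower, and in 28.7% of all genes. Of the 41 members 29 had values below 0, as did 6859 of all 13982 tested genes. The median was -0.06 over the members and 0.0037 over all genes. Of the 86 further tested chromatin genes described below, 57 also had values below 0, with a median of -0.04.

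For the interaction no member was called, where 0.093% of all genes passed, and 1 of 41 had an unadjusted p under 0.05, where 5.52% of all genes had. Setdb1, which places trimethylation on lysine 9 at repeats, was 36.1, 34.1 and 31.7 CPM in WT, 35.9 and 38.1 CPM in Neil1-/-, 35.8, 32.1 and 35.6 CPM in Neil2-/- and 31.3 and 29.6 CPM in Neil1-/-Neil2-/-. Both double mutants were below the other 8 libraries. The double mutants lay outside the other 8 in 4 members (Setdb1, Uhrf2, Ehmt1 and Dnmt1) and in 6.22% of all tested genes. The interaction was -0.31 ± 0.13 (SE, adjusted p = 0.875, edgeR). Hdac4 (-0.31 ± 0.15), Uhrf2 (-0.30 ± 0.15) and Kat2b, the acetyltransferase PCAF (0.38 ± 0.19), followed. Kat2b was 8.38, 8.80 and 9.07 CPM in WT, 7.0 and 7.38 CPM in Neil1-/-, 7.97, 8.99 and 8.80 CPM in Neil2-/- and 9.96 and 8.37 CPM in Neil1-/-Neil2-/-. The 2 Neil1-/- libraries had the lowest Kat2b of the 10. Neil1-/- lay outside the other 8 libraries in 6 members and in 10.7% of all genes. In Neil1-/-Neil2-/- against Neil1-/-, 9 of 41 members had an unadjusted p under 0.05, 6 lower and 3 higher, and 13% of all genes did. None passed. Over all 4 genotypes 7 of 41 had such a p and 16.3% of all genes did.

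The levels of the group spanned a wide range, given as CPM per kb of the longest transcript. The median of the 43 was 6.05 and that of all tested genes 6.69, and 19 of the 43 were at or above the latter. Hdac11, the only class IV deacetylase, was highest at 79.6 ± 3.69 (SD over 10 libraries), followed by Mbd3 (48.6), Ehmt2, which encodes G9a (40.4), Hdac2 (39.4) and Kat2a, the acetyltransferase GCN5 (27.8). Among the deacetylases Hdac7 was lowest at 0.939, among the acetyltransferases Kat2b at 1.82 and among the lysine 9 enzymes Ehmt1 at 4.84. Hdac11 was 196, 207 and 202 CPM in WT, 221 and 215 CPM in Neil1-/-, 205, 210 and 223 CPM in Neil2-/- and 226 and 207 CPM in Neil1-/-Neil2-/-. Both Neil1-/- libraries of Hdac11 were above the WT libraries, with a log2 difference of 0.11 ± 0.07 (SE, adjusted p = 0.652, edgeR). Hdac7, a class IIa deacetylase, was 5.14, 4.59 and 5.05 CPM in WT, 4.48 and 6.88 CPM in Neil1-/-, 3.45, 4.65 and 4.11 CPM in Neil2-/- and 6.33 and 3.99 CPM in Neil1-/-Neil2-/-, with the widest relative spread of the tested members (21.6% of its mean, against a median of 8.93%). The lysine 4 enzymes lay close together, from Kmt2c at 3.78 to Setd1a at 7.74. Of the Polycomb genes Ezh1 was at 13.5 and Ezh2 at 0.542, and of the demethylases Kdm1a, which encodes LSD1, at 20.9 and Kdm6b, which removes methylation of lysine 27, at 3.57. Ezh2 was 1.55, 1.35 and 1.59 CPM in WT, 0.858 and 1.86 CPM in Neil1-/-, 1.21, 1.45 and 1.71 CPM in Neil2-/- and 1.96 and 1.58 CPM in Neil1-/-Neil2-/-, from 18 to 40 counts per library, and of the tested members it had the largest SE in each mutant against WT. The other genes at the ends of their classes are given by library. Kat2a was 92.8, 90.2 and 93.3 CPM in WT, 86.5 and 90.2 CPM in Neil1-/-, 95.6, 89.7 and 96.7 CPM in Neil2-/- and 84.5 and 88.9 CPM in Neil1-/-Neil2-/-. The double mutants were below WT for Kat2a, by a log2 difference of -0.09 ± 0.07 (SE, adjusted p = 0.684, edgeR). Setd1a was 45.9, 56.2 and 51.1 CPM in WT, 42.0 and 48.1 CPM in Neil1-/-, 60.0, 51.8 and 46.1 CPM in Neil2-/- and 50.3 CPM in both double mutants. Its exons share 3613 bases on the same strand with Gm49388, which has no row in the count table, so its level is uncertain. Kmt2c was 63.2, 57.3 and 54.9 CPM in WT, 56.4 and 53.4 CPM in Neil1-/-, 59.7, 56.5 and 58.5 CPM in Neil2-/- and 55.0 and 51.3 CPM in Neil1-/-Neil2-/-. Each mutant overlapped WT for these 2 genes. Ezh1 was 59.0, 56.6 and 56.5 CPM in WT, 52.7 and 56.5 CPM in Neil1-/-, 56.5, 58.3 and 54.4 CPM in Neil2-/- and 55.0 and 60.4 CPM in Neil1-/-Neil2-/-. Ehmt2 was 153, 169 and 165 CPM in WT, 158 and 164 CPM in Neil1-/-, 168, 163 and 158 CPM in Neil2-/- and 166 and 163 CPM in Neil1-/-Neil2-/-. The Ehmt2 values differed between libraries by an SD of 3.19% of their mean. Kdm1a was 65.3, 60.5 and 65.2 CPM in WT, 67.9 and 60.8 CPM in Neil1-/-, 68.6, 59.9 and 62.4 CPM in Neil2-/- and 59.4 and 62.3 CPM in Neil1-/-Neil2-/-. Kdm6b was 21.4, 23.5 and 24.4 CPM in WT, 27.7 and 26.4 CPM in Neil1-/-, 27.0, 19.9 and 20.5 CPM in Neil2-/- and 25.5 and 21.2 CPM in Neil1-/-Neil2-/-. Both Neil1-/- libraries of Kdm6b were above WT (0.23 ± 0.14, SE, adjusted p = 0.641, edgeR), which did not pass.

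**Figure D5:**
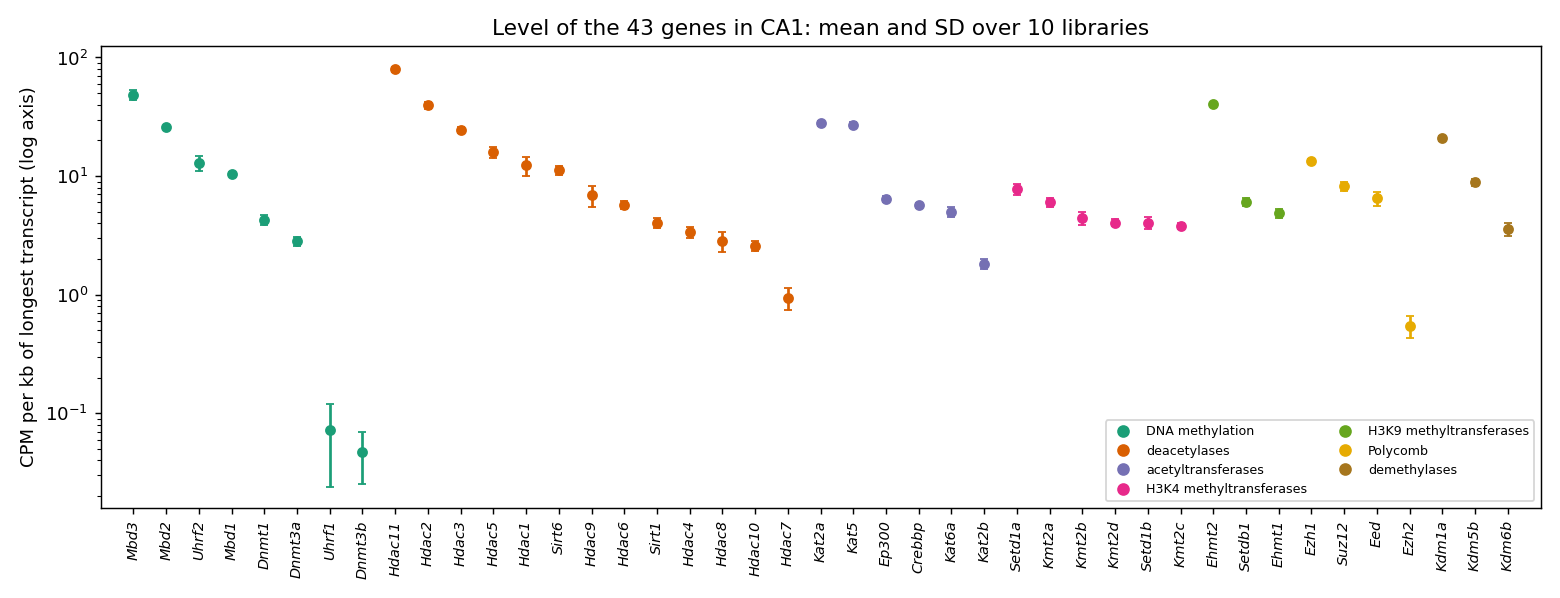
Level of the 43 genes in CA1 in CPM per kb of the longest transcript (log axis), mean and SD over 10 libraries, ordered within each class. Hdac11 is highest at 79.6, and Uhrf1 and Dnmt3b lie near the bottom of the axis at 0.0716 and 0.0473.

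Dnmt3b, a methyltransferase that adds new methylation in early development, and Uhrf1, which brings DNMT1 to newly copied DNA, were under the filter. Dnmt3b had 5, 1 and 3 counts in WT, 4 and 3 in Neil1-/-, 3, 4 and 8 in Neil2-/- and 5 and 6 in Neil1-/-Neil2-/-, 42 in all. Uhrf1 had 7, 5 and 8 counts in WT, 1 and 4 in Neil1-/-, 8, 11 and 1 in Neil2-/- and 1 and 7 in Neil1-/-Neil2-/-, 53 in all. In the fit without the filter neither gene passed in any of the 9 comparisons, with adjusted p of at least 0.664 for Dnmt3b and 0.597 for Uhrf1 (edgeR). The SE of their log2 differences there was 0.57 to 1.18 for Dnmt3b and 0.62 to 1.36 for Uhrf1.

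Within pairs of related genes the same gene was usually the higher one. Of 13 such pairs, 11 had the same gene higher per kb in all 10 libraries. Ezh1, the Polycomb methyltransferase of non-dividing cells, was 18.5 to 40.7 times as high as Ezh2, which goes with division. Kat2a was 12.1 to 17.6 times as high as Kat2b and Ehmt2 7.3 to 10.3 times as high as Ehmt1. Dnmt1, which copies methylation onto new DNA strands, was 1.27 to 1.92 times as high as Dnmt3a. The exceptions were Crebbp with Ep300 and Kmt2c with Kmt2d, whose order changed between libraries. With lengths over all exons in place of the longest transcript, Kmt2d was higher than Kmt2c in all 10 libraries, and 12 of the 13 pairs kept their order. The ratio of Hdac1 to Hdac2 per kb was 0.353 ± 0.0288 in WT and 0.353 ± 0.0518 in Neil1-/-, and 0.272 ± 0.0303 in Neil2-/- and 0.268 ± 0.0296 in Neil1-/-Neil2-/- (SD over 3, 2, 3 and 2 libraries). By library it was 0.316 to 0.389 with NEIL2 and 0.247 to 0.306 without it. Hdac2 itself was 116 to 134 CPM without NEIL2 and 120 to 146 CPM with it.

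A further 88 chromatin genes, among them other sirtuins, demethylases, arginine methyltransferases and subunits of repressor complexes, gave 86 that could be tested, and none passed in any comparison. In the additive comparison for NEIL2, 16 of the 86 had an unadjusted p under 0.05, 8 in each direction, and their median log2 difference was -0.01. The smallest p among them there belonged to Kmt2e (0.21 ± 0.06), Kdm4b (0.30 ± 0.09) and the demethylase gene Kdm7a (-0.30 ± 0.10, SE), with adjusted p of 0.114, 0.134 and 0.147 in edgeR. In the additive comparison for NEIL1 12 of 86 had such a p, led by Kmt2e at -0.22 ± 0.06 (SE, adjusted p = 0.185, edgeR).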

How the data were processed

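Libraries of poly-A RNA were sequenced as paired reads of 100 bases on a BGISEQ-500. The authors' sequencing provider filtered reads with SOAPnuke, aligned them with Bowtie2 to GRCm38 and estimated counts with RSEM; the deposited values are expected counts per gene, of which 87.8% are whole, and tool versions are not given in the sources used here. Groups were taken from the deposited genotype labels, and 2 of 12 libraries with conflicting title and label were left out of every fit. Expected counts were rounded and tested with edgeR 4.0.16 in R 4.3.3 (genes kept by filterByExpr at min.count 10, TMM scaling, 1 shared spread per gene, glmQLFTest, 2-sided, Benjamini-Hochberg over 13982 genes, threshold 0.05). The study used DESeq2, which was run here as an alternative (version 1.42.0), as was limma voom 3.58.1. CPM are counts scaled to a common library size with TMM factors. Gene positions came from RefSeq and lengths from GENCODE M21. The 9 comparisons are the 3 mutants against WT, the interaction, any difference, the 2 additive effects and 2 added later. The members, the lists and the comparisons were chosen with earlier results of these data known. Named genes are the members past the threshold, the 4 smallest p in each of the 7 planned comparisons, the highest and lowest member of each class and those under the filter; of the further chromatin genes at most 3 per comparison are named. The test was checked on simulated data with planted changes larger than any difference estimated for a tested member. That check does not show how often differences of the members' size are found. Replicates are separate mice, and replicate numbers were not taken as pairs.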

Additional observations from a re-analysis of the deposited data

How the results depend on the processing

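With all 10 libraries, genes called numbered 28, 42 and 45 for Neil1-/-, Neil2-/- and Neil1-/-Neil2-/- against WT, 13 for the interaction, 174 for any difference, 47 and 209 for the additive loss of NEIL1 and NEIL2, and 64 and 31 for Neil1-/-Neil2-/- against Neil1-/- and against Neil2-/-. The counts that follow keep this order. Without the filter on low counts they were 44, 64, 135, 22, 521, 106, 301, 150 and 151. DESeq2 gave 86, 158, 186, 30, 871, 241, 630, 278 and 149 with the same filter and 86, 152, 179, 30, 850, 235, 628, 273 and 152 without it, and a threshold of 0.1 gave 44, 73, 116, 17, 386, 85, 493, 124 and 64. limma voom gave 29, 45, 42, 10, 153, 45, 210, 37 and 18. Without both Neil1-/- replicate 2 and the first Neil1-/-Neil2-/- library the counts were 28, 46, 25, 12, 82, 25, 87, 5 and 17.

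With each library left out in turn, the counts ran from 17 to 26, 15 to 48, 17 to 247, 10 to 41, 77 to 368, 28 to 79, 69 to 215, 12 to 153 and 14 to 328. The highest counts for Neil1-/-Neil2-/- against WT, the interaction and any difference (247, 41 and 368) came without Neil1-/-Neil2-/- replicate 2, and the lowest for Neil1-/-Neil2-/- against WT (17) and any difference (77) without Neil1-/-Neil2-/- replicate 1. The same 2 libraries gave the ends for Neil1-/-Neil2-/- against Neil1-/- and against Neil2-/-. The lowest for the loss of NEIL2 (69) came without WT replicate 1. The highest for the loss of NEIL1 (79) came without Neil1-/- replicate 1, and the lowest for Neil2-/- against WT (15) without Neil2-/- replicate 3. Where a group was left with 1 library, that library was assumed to vary like the others.

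Among the 43 genes the count for the additive loss of NEIL2 was 1, Hdac1, and 3 (Hdac1, Hdac8 and Uhrf2) with DESeq2, with or without the filter, and at a threshold of 0.1. It was 1 to 2 with a library left out. In any difference the count was 1, 2 with DESeq2, 0 to 1 with a library left out, 0 without both Neil1-/- replicate 2 and the first double mutant library and 0 with the replicate block. DESeq2 and the threshold of 0.1 gave 1 (Hdac1) in Neil2-/- against WT, and DESeq2 gave 1 (Uhrf2) in Neil1-/-Neil2-/- against Neil1-/-. Leaving out WT replicate 3 gave 1 (Uhrf2) in Neil1-/-Neil2-/- against WT and against Neil1-/-, where the other libraries gave 0. The Hdac1 interaction, -0.0027, turned to 0.0051 with limma voom, 0.00037 with the replicate block and, with 1 library left out, ran from -0.098 without Neil2-/- replicate 1 to 0.080 without Neil2-/- replicate 2. The Hdac1 difference of Neil1-/-Neil2-/- from Neil2-/-, 0.07, ran from -0.021 without Neil2-/- replicate 1 to 0.158 without Neil2-/- replicate 2. None of these was called.

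Replicate numbers were not taken as pairs. Correlations of deviations ran from -0.165 to 0.186 for same-numbered libraries and from -0.187 to 0.187 for differently numbered ones. In a group of 2 libraries the deviations mirror each other, so these values cannot exclude a shared batch. A replicate block gave 23, 18, 34, 11, 99, 38, 148, 26 and 21 genes called, and Hdac1 stayed called for the loss of NEIL2. The cause of these changes was not tested. The number of members within 5 Mb of Neil1 or Neil2 was 0, and 2 within 40 Mb. Among the tested genes of the list depth limits Ezh2 (18 to 40 counts per library) most.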

Other observations

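The 2 libraries that entered no group were also measured for the genes above. The library titled as Neil1-/- and labelled as the double mutant had 27.5 CPM of Hdac1, 7.32 CPM of Hdac8 and 54.1 CPM of Uhrf2. The library titled as the double mutant and labelled as Neil1-/- had 22.2 CPM of Hdac1, 6.62 CPM of Hdac8 and 43.6 CPM of Uhrf2.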
